A study of Cavia porcellus with 13 samples.

Results

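Solute carrier genes (symbols SLC followed by a family number, A and a member number) were taken from a sequencing table of guinea pig skin. A row was kept when its symbol matched that pattern, without regard to case, and its mean over the 13 libraries reached 5 TPM (transcripts per 1000000, a gene's share of the library's transcripts after scaling by length). This left 173 genes of 44 families among 307 solute carrier rows of 50 families, in a table of 26855 genes. The cut-off fell between SLC25A14 (5.155 TPM), SLC2A13 (5.161) and SLC29A2 (5.537) just inside and SLC22A31 (4.976) and SLC35A5 (4.961) just outside. Of the 134 genes below it, 26 were listed at 0 in every library and 62 passed the filter of the test, while all 173 genes above it passed that filter.

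The study asked how skin responds to ticks in guinea pigs with different histories of exposure. The bitten groups were first exposure (3 libraries), saliva immune (3), 3 bites (2) and 2 bites (2), and the naive group (3) was skin without a bite. All libraries carry day 4 after the tick bite as their time point. The titles of first exposure, saliva immune and naive replicates 1 and 2 begin with CK1, and those of 3 bites, 2 bites and naive replicate 3 begin with EF19-5. The labels do not explain these prefixes, which were taken as 2 experiments, and the reference of a bitten group was the naive skin with its prefix. The sources used here do not give strain, sex, age, tick species or the way of immunization. Whether each library is a separate animal is not stated, so p-values reflect the spread between libraries, some of which may be technical. All libraries are whole skin, in which fewer cells of a type and less RNA per cell cannot be told apart.

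Solute carriers are membrane proteins that move nutrients, metabolites, ions and vitamins across the plasma membrane and the membranes of organelles. Most work as facilitated carriers, exchangers or cotransporters driven by gradients of sodium or protons, and the SLC25 family serves the inner mitochondrial membrane. In skin they supply the dividing epidermis with glucose, amino acids and fatty acids, pass lactate between cells, handle zinc and iron, and set the pH of melanosomes. The genes were grouped by family into amino acid (30 genes), glucose and other sugars (13), monocarboxylate (8), lipid and bile acid (9), nucleoside (3), nucleotide sugar (4), metal ion (24), ion and pH (25), mitochondrial carriers (34) and vitamin, peptide and organic ion (18). A further 5 genes share the symbol pattern but encode no carrier: the scaffold proteins SLC9A3R1 and SLC9A3R2, the transcription factor SLC2A4RG, SLC4A1AP and SLC7A6OS.

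Every column of the table sums to 1000000 TPM, between 13270 and 14391 genes per library reached 1 TPM, and sequencing depth is unknown because TPM keeps no record of it. Markers of skeletal muscle (13 of 16 listed genes were in the table and none of these was listed at 0 throughout) took unequal shares of the libraries. They made up 4.30%, 3.21% and 4.83% of summed TPM in first exposure, 6.41%, 7.12% and 1.74% in saliva immune, and 7.04% and 12.3% in CK1 naive skin. In EF19-5 they made up 1.084% and 0.528% in 3 bites, 0.459% and 0.611% in 2 bites, and 1.77% in naive skin. By this sum naive replicate 2 held the most muscle RNA, and saliva immune replicate 3 stood apart from the others of its group. Naive replicate 2 was highest for most single markers, among them CKM and ACTA1, but not for MYH1, MB and TNNT1. MYH1 stood at 1597 TPM in it and at 4246 and 4526 TPM in saliva immune replicates 1 and 2. In 3 bites replicate 1 the melanocyte markers TYR, MLANA and TYRP1 were listed at 0, whereas every other library held them. The other listed melanocyte markers did not share this pattern in full. In that library PMEL stood at 1.86 TPM, KIT at 3.46 TPM, DCT at 4.39 TPM and MITF at 22.9 TPM. OCA2 was at 0 there and in some other libraries.

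The levels of the genes spanned more than 2 orders of magnitude. The mitochondrial phosphate carrier SLC25A3 averaged 794 TPM and the ADP/ATP exchanger SLC25A4 (ANT1) 957 TPM, and after them came the oxoglutarate/malate carrier SLC25A11 (164 TPM). The iron exporter ferroportin, SLC40A1, averaged 149 TPM, the organic cation transporter SLC22A3 141 TPM, the neutral amino acid transporter SLC38A2 138 TPM and the zinc exporter SLC30A1 135 TPM. In the other classes the highest genes were the choline transporter Slc44a2 (118 TPM), the glucose transporter SLC2A1 (GLUT1, 94.7 TPM), SLC35A4 of the nucleotide sugar family (84.8 TPM), the lactate and pyruvate transporter SLC16A1 (MCT1, 66.0 TPM), the nucleoside transporter SLC29A1 (ENT1, 57.7 TPM) and the sodium-phosphate cotransporter SLC34A2 (48.5 TPM). In all, 13 genes averaged 100 TPM or more and 141 averaged 10 TPM or more. Of the 173, 169 stayed above 1 TPM in every library.

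**Figure D1:**
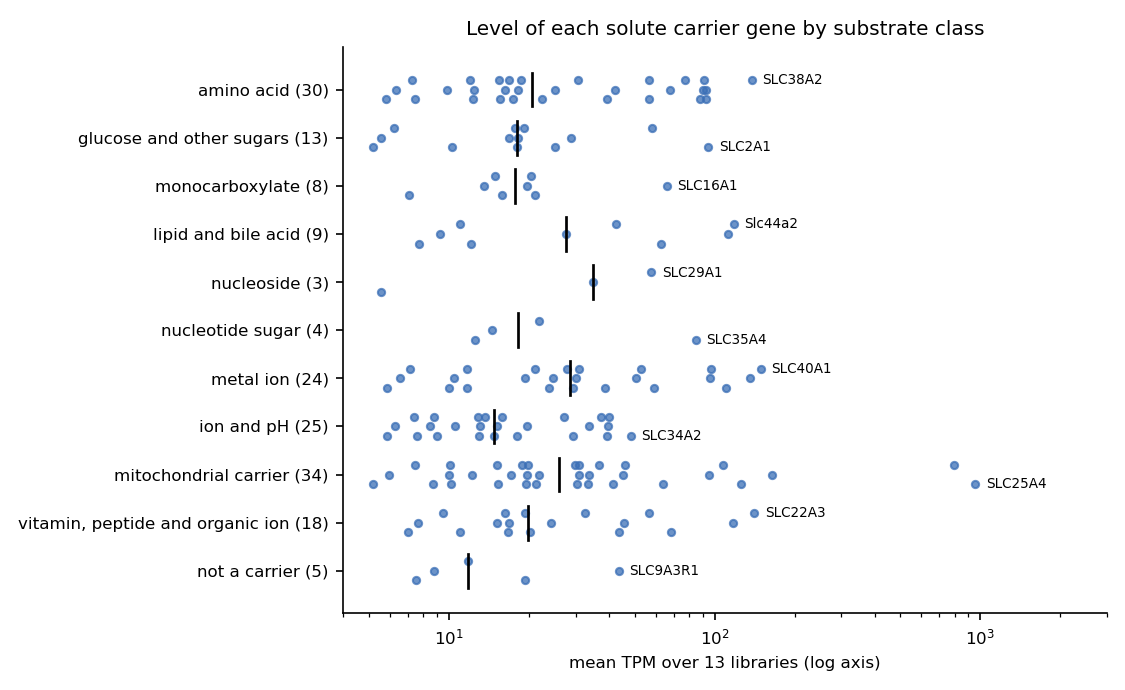
Mean TPM over 13 libraries (log axis) of each of the 173 solute carrier genes, by substrate class with the number of genes in parentheses; each point is a gene, black lines are class medians and the highest gene of each class is named. The mitochondrial carriers SLC25A4 (957 TPM) and SLC25A3 (794 TPM) stand apart from all other genes.

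The summed share of the set lay between 0.677% and 0.872% in every library. Without SLC25A4 the sum ran from 0.535% in naive replicate 2 to 0.739% in 3 bites replicate 2. The 173 genes together took 0.776%, 0.776% and 0.792% of summed TPM in first exposure, 0.872%, 0.820% and 0.779% in saliva immune and 0.750% and 0.706% in CK1 naive skin. In EF19-5 they took 0.715% and 0.764% in 3 bites, 0.679% and 0.677% in 2 bites and 0.713% in naive skin. In the plot of levels by class SLC25A4 and SLC25A3 stand apart from the other genes, yet most of that total remained without SLC25A4. The highest library stood at a median of 2.83 times the lowest, 37 genes varied by less than 2-fold, and 8 varied by 10-fold or more or were listed at 0 in some library. SLC25A3 was the steadiest, with 661 to 866 TPM and a highest library 1.31 times the lowest.

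Several of the genes that varied most between libraries were high and low in the same libraries as the muscle markers, whose part in this was not tested. SLC25A4 (ENSCPOG00000005275) stood at 1151, 855 and 1385 TPM in first exposure, 2035, 2188 and 409.5 TPM in saliva immune and 1200 and 1715 TPM in CK1 naive skin, and at 326.5 and 249.9 TPM in 3 bites, 197.9 and 258.8 TPM in 2 bites and 472 TPM in EF19-5 naive skin. It was therefore high in the libraries with much muscle RNA, though not in the order of the marker sum, and low in saliva immune replicate 3 and all of EF19-5. The insulin-responsive glucose transporter of muscle and fat, SLC2A4 (GLUT4, ENSCPOG00000031830), measured 67.7, 59.0 and 82.0 TPM in first exposure, 119, 141 and 23.0 TPM in saliva immune and 69.1 and 99.5 TPM in CK1 naive skin. Its EF19-5 libraries lay between 14.1 and 26.1 TPM. Naive replicate 2, with the largest share of muscle markers (12.3%), held less SLC25A4 and SLC2A4 than saliva immune replicates 1 and 2 (6.41% and 7.12%). The sodium-calcium exchanger SLC8A3 (NCX3) ranged over 22.5-fold, with 38.7, 39.4 and 7.93 TPM in saliva immune and 31.0 and 54.7 TPM in CK1 naive skin. The aspartate-glutamate carrier SLC25A12, the coenzyme A carrier SLC25A42 and the neutral amino acid transporters SLC43A1 and SLC43A2, chosen after their values were seen, ordered the libraries in a similar way, with highest-to-lowest ratios of 8.23, 8.46, 7.63 and 7.70. SLC25A4 and SLC25A5 are close paralogs, and the way reads shared between them were assigned is not given in the sources used here.

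**Figure D2:**
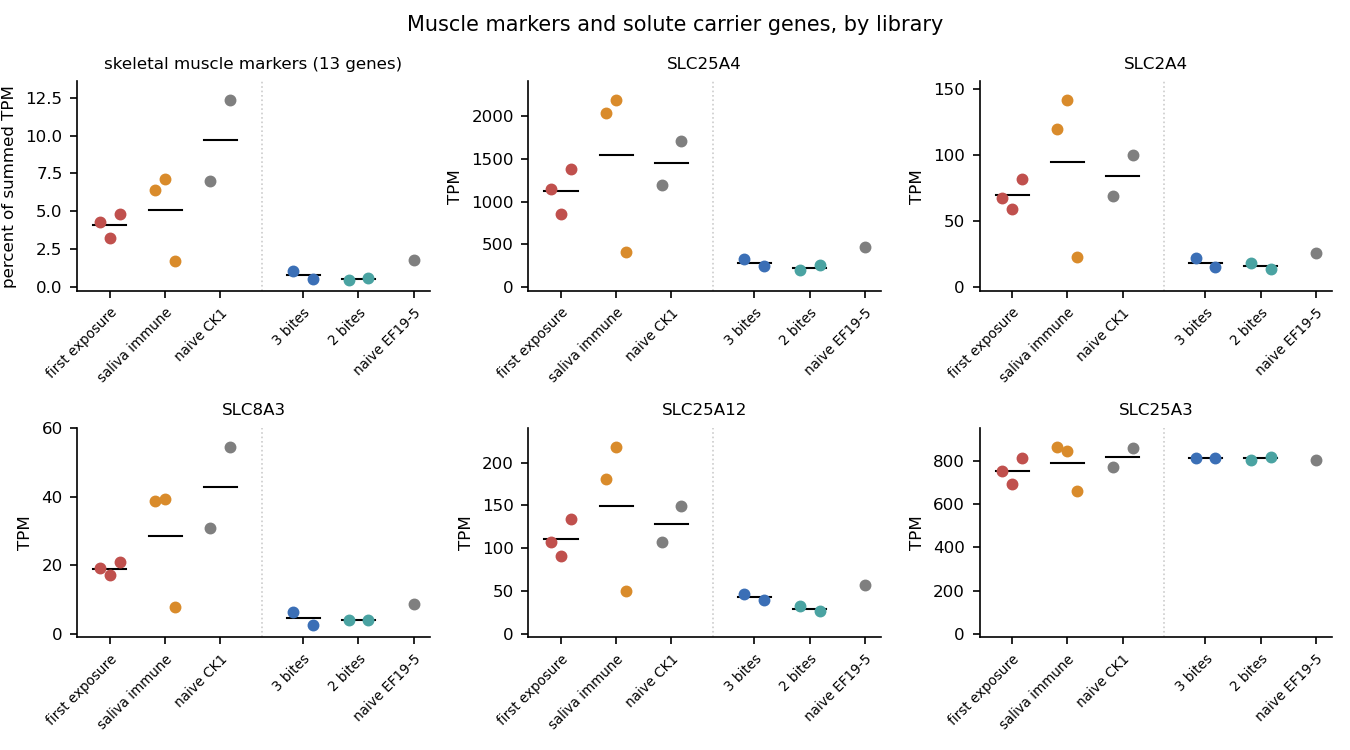
Summed share of 13 skeletal muscle markers (percent of summed TPM) and TPM of 5 mitochondrial, glucose and calcium carriers in each library; points are libraries, black lines are group means and the dotted line separates CK1 from EF19-5. SLC25A4, SLC2A4, SLC8A3 and SLC25A12 are low in saliva immune replicate 3 and in EF19-5, where the markers are low, while SLC25A3 stays between 661 and 866 TPM.

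The 10 bitten libraries were first compared with the 3 naive ones, with the experiment as a term. SLC16A3 and SLC16A1, which both carry lactate, stood higher in bitten skin, and neither passed the test. SLC16A3 (MCT4, ENSCPOG00000025481), which exports lactate from glycolytic cells, measured 15.6, 18.01 and 22.3 TPM in first exposure, 38.05, 36.2 and 13.3 TPM in saliva immune and 8.96 and 9.71 TPM in CK1 naive skin. In EF19-5 it measured 18.1 and 14.6 TPM in 3 bites, 26.6 and 21.9 TPM in 2 bites and 10.9 TPM in naive skin. No bitten library overlapped the naive ones, and the means were 22.5 ± 8.69 TPM in bitten (SD, n = 10) and 9.86 ± 0.991 TPM in naive skin (n = 3). Means over all bitten and all naive libraries, here and in the next paragraphs, pool both experiments. Their SDs thus include differences between experiments. Differences are on the log2(TPM + 1) scale, on which low genes show less than their full change, and the log2 difference of SLC16A3 was 1.04 (SE 0.285, limma adjusted p = 0.139). SLC16A1 (ENSCPOG00000022989) lay at 45.2 to 126 TPM with a median of 73.0 TPM in the 10 bitten libraries, against 30.1, 43.2 and 46.1 TPM in naive skin. First exposure replicate 1 overlapped the naive libraries, and the log2 difference was 0.82 (SE 0.192, adjusted p = 0.113).

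SLC37A2 and SLC37A4, sugar phosphate carriers of the endoplasmic reticulum, lay in opposite directions, and neither passed the test. SLC37A2 (ENSCPOG00000004719), a glucose-6-phosphate/phosphate exchanger known from macrophages, measured 14.4, 26.7 and 19.0 TPM in first exposure, 18.02, 14.5 and 26.6 TPM in saliva immune and 12.7 and 5.71 TPM in CK1 naive skin. Its EF19-5 values were 39.75 and 32.6 TPM in 3 bites, 55.6 and 35.9 TPM in 2 bites and 23.0 TPM in naive skin. Within each experiment every bitten library was above the naive ones (log2 difference 0.97, SE 0.243, adjusted p = 0.128). SLC37A4 (ENSCPOG00000035396), the glucose-6-phosphate translocase that serves glucose release, measured 17.1, 15.55 and 15.7 TPM in first exposure, 22.4, 23.6 and 15.05 TPM in saliva immune and 29.9 and 47.5 TPM in CK1 naive skin. It measured 11.2 and 10.3 TPM in 3 bites, 5.495 and 6.11 TPM in 2 bites and 14.75 TPM in EF19-5 naive skin, so that every bitten library was below the naive ones of its experiment (-0.96, SE 0.218, adjusted p = 0.113). Macrophage markers (9 of 10 listed in the table, none at 0 throughout) took 0.0127% to 0.09295% of summed TPM in bitten and 0.00951% to 0.02235% in naive libraries. Muscle markers took 0.459% to 7.12% and 1.77% to 12.3%, and the part of either cell type in these differences was not tested.

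Other genes with libraries that did not overlap within either experiment came from several classes. SLC34A2, which takes up phosphate, stood at 54.5 ± 25.4 TPM in bitten and 28.5 ± 17.8 TPM in naive skin (log2 difference 0.95, adjusted p = 0.141). The mitochondrial carrier SLC25A34, whose substrate is not settled, lay at 1.06 to 30.8 TPM with a median of 8.58 TPM in bitten libraries, against 0.779, 4.77 and 5.30 TPM in naive ones (1.31, adjusted p = 0.137). SLC66A3 (0.75, adjusted p = 0.14), the cation-chloride cotransporter family member SLC12A9 (0.64, adjusted p = 0.152) and the fatty acid transporter SLC27A4 (0.55, adjusted p = 0.186) also lay higher. The proton-coupled amino acid transporter SLC36A2 stood at 6.40 ± 2.64 TPM in bitten and 11.0 ± 4.35 TPM in naive skin (-0.67, adjusted p = 0.133), and the aromatic amino acid transporter SLC16A10 (TAT1) at 16.9 ± 2.85 and 24.7 ± 4.08 TPM (-0.51, adjusted p = 0.134). SLC16A10 was low in every bitten library against its own naive skin, and its bitten values reached 21.2 TPM in CK1, above the 20.0 TPM of EF19-5 naive skin.

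None of the 173 genes passed limma in bitten against naive skin, where 0.0401% of the 14979 tested genes passed at an adjusted p under 0.05. Before adjustment (p under 0.05), 29 genes (16.8%) were higher and 7 (4.05%) lower, beside 11.2% and 4.58% of all tested genes and 10.6% higher among tested genes with a mean of 5 TPM or more. The median log2 difference was 0.21 for the solute carriers and 0.10 over all tested genes. Of the 173, 131 (75.7%) lay above 0, beside 64.6% of all tested genes. By class, the count of higher and lower genes at that p was 3 and 0 of 8 monocarboxylate genes, 5 and 0 of 18 vitamin, peptide and organic ion genes, 5 and 2 of 25 ion and pH genes, 2 and 2 of 30 amino acid genes, 2 and 1 of 13 sugar genes, 4 and 1 of 24 metal ion genes, 4 and 1 of 34 mitochondrial carriers, 2 and 0 of 9 lipid genes, 2 and 0 of 4 nucleotide sugar genes and 0 of 3 nucleoside genes. Naive replicate 2 decided the count: without it 9 genes were higher at that p and the median was 0.06. The median over all tested genes was then 0.01. In the other fits, here and below, counts at an unadjusted p were made for the solute carriers alone. With median-of-ratios scaling, which brought the median of all genes to -0.01, the split was 23 higher and 10 lower and the median of the solute carriers was 0.10.

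**Figure D3:**
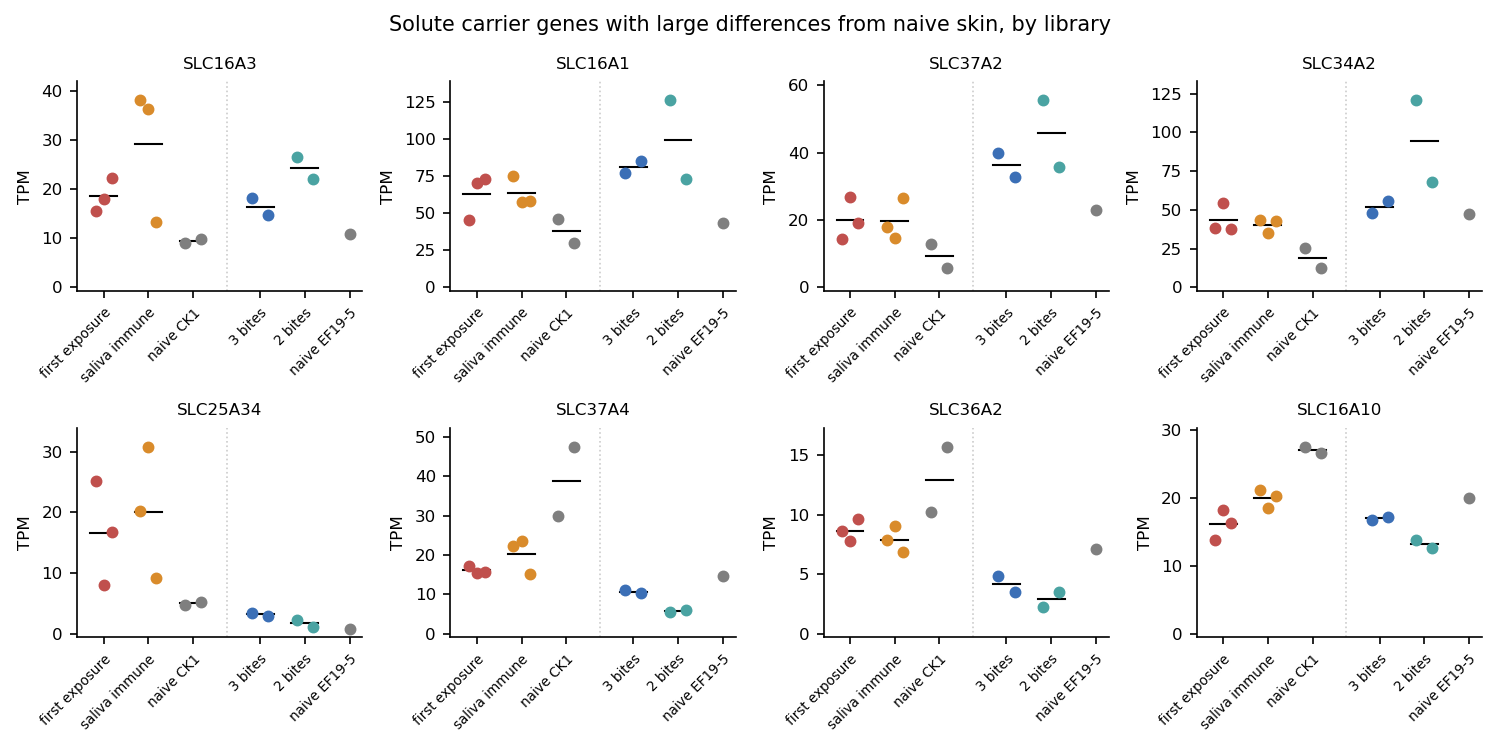
TPM of 8 solute carrier genes in each library; points are libraries, black lines are group means and the dotted line separates CK1 from EF19-5. SLC16A3, SLC37A2, SLC34A2 and SLC25A34 lie above and SLC37A4, SLC36A2 and SLC16A10 below the naive skin of their own experiment in every bitten library, and SLC16A1 overlaps it in first exposure replicate 1.

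First exposure was then compared with CK1 naive skin. The vitamin and organic ion carriers SLC22A4 (OCTN1, which takes up ergothioneine) and SLC19A2 (a thiamine transporter) were among the genes furthest above naive skin. SLC22A4 measured 15.1, 26.1 and 16.4 TPM in first exposure and 8.91 and 4.45 TPM in naive skin (log2 difference 1.42, SE 0.389, adjusted p = 0.222). SLC19A2 measured 17.5, 22.1 and 16.1 TPM against 10.7 and 4.86 TPM (1.23, SE 0.319, adjusted p = 0.203). In both genes the first exposure libraries lay above both naive ones, of which replicate 2 was the lower. The monocarboxylate transporter SLC16A7 (MCT2) stood at 20.3, 13.5 and 19.1 TPM in first exposure and 9.32 and 5.89 TPM in naive skin (1.12, adjusted p = 0.228), and SLC16A3 differed by 0.91 (adjusted p = 0.343). SLC27A4, a fatty acid transporter needed for the skin barrier in mouse and human, averaged 72.0 ± 9.74 TPM in first exposure (n = 3) and 38.4 ± 12.6 TPM in naive skin (n = 2), with a difference of 0.92 (adjusted p = 0.185). The glutamine transporter SLC1A5 (ASCT2) measured 65.2, 41.5 and 40.8 TPM against 37.4 and 18.6 TPM (0.84, adjusted p = 0.316).

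Below naive skin lay the calcium-regulated ATP-magnesium/phosphate carrier SLC25A25, at 33.6, 23.9 and 32.5 TPM in first exposure and 75.3 and 101 TPM in naive skin (log2 difference -1.53, SE 0.318, adjusted p = 0.148). SLC37A4 (-1.18, adjusted p = 0.148) and SLC16A10 (-0.72, adjusted p = 0.148) had the same adjusted p. SLC8A3 (-1.078), the magnesium transporter family member SLC41A3 (-0.78) and the arginine transporter SLC7A2 (-0.70) also lay lower without overlap, at adjusted p of 0.269 to 0.466. Muscle markers took 3.21% to 4.83% in first exposure and 7.04% and 12.3% in naive skin. Adipocyte markers (9 of 10 listed in the table, RETN at 0 throughout) took 0.757%, 0.257% and 0.457% in first exposure and 0.116% and 0.0575% in naive skin. Neutrophil markers (5 of 8 in the table, none at 0 throughout) took 0.02155%, 0.07255% and 0.224% against 0.0119% and 0.00822%. For all of these markers the groups did not overlap, and their part in the values of either direction was not tested. The smallest adjusted p among the solute carriers was 0.148 and 0 passed, beside 0.0334% of all tested genes. Before adjustment 31 genes (17.9%) were higher and 4 (2.31%) lower (SLC25A25, SLC37A4, SLC41A3 and SLC16A10), against 9.15% and 4.49% of all tested genes and 9.49% higher among those with a mean of 5 TPM or more. The median difference was 0.38, against 0.14 over all tested genes, and 0.22 against 0.00 with median-of-ratios scaling. Its count and median rested on single naive libraries. Without naive replicate 2 there were 2 higher genes and a median of 0.13, against -0.0 over all tested genes. Without naive replicate 1 there were 58 and 0.58, against a median of 0.27 over all tested genes. Without first exposure replicate 2 there were 16 higher genes.

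Saliva immune skin was compared with the same naive libraries, so the comparisons with first exposure and with saliva immune skin share these libraries. SLC16A3 was again high in saliva immune replicates 1 and 2 (38.05 and 36.2 TPM) and lower in replicate 3 (13.3 TPM), with a log2 difference of 1.41 (SE 0.378, adjusted p = 0.276). Without replicate 3, which held 1.74% muscle markers beside 6.41% and 7.12% in the others, it passed the test (1.88, SE 0.20, adjusted p = 0.0225), as 1 of 3 higher genes among all tested. The part of muscle RNA in this was not tested. SLC25A34 measured 20.3, 30.8 and 9.11 TPM in saliva immune and 4.77 and 5.30 TPM in naive skin (1.66, adjusted p = 0.317). SLC34A2 differed by 1.13 (adjusted p = 0.287), SLC37A2 by 1.07 (adjusted p = 0.363), SLC49A3 by 1.25 (adjusted p = 0.338) and SLC22A18 by 1.00 (adjusted p = 0.297). SLC37A4 (-0.88, adjusted p = 0.275), SLC36A2 (-0.63, adjusted p = 0.381), SLC41A3 (-0.51), SLC16A10 (-0.42) and SLC35A4 (-0.17) lay lower without overlap.

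None of the 173 genes passed in saliva immune against naive skin, beside 0.00668% of all tested genes. At an unadjusted p under 0.05, 27 (15.6%) were higher and 4 (2.31%) lower (SLC37A4, SLC25A25 at -0.80, SLC36A2 and SLC16A10), against 9.55% and 2.08% of all tested genes and 8.51% higher among those with a mean of 5 TPM or more. Of these, 7 of the higher genes were among the 25 ion and pH genes and 4 among the 8 monocarboxylate genes, whose medians were 0.47 and 0.65. Both medians stayed positive under both other scalings, and 9 of 11 classes kept the sign of their median there. The median of the solute carriers was 0.28 against 0.14 over all tested genes, and with quantile normalization the split was 20 higher and 6 lower. Without naive replicate 2 there were 2 higher genes and a median of 0.08, against 0.01 over all tested genes. Without naive replicate 1 there were 47 and 0.49, against a median of 0.29 over all tested genes. Without saliva immune replicate 2 there were 50 higher genes and without saliva immune replicate 3 there were 17. Adipocyte markers took 0.268%, 0.251% and 0.573% in saliva immune skin and neutrophil markers 0.115%, 0.0425% and 0.0282%, all above both CK1 naive libraries, and their part in these counts was not tested.

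Saliva immune and first exposure skin were also set against each other. The clearest separations were small ones. The anion exchanger Slc26a6 measured 14.7, 12.55 and 14.5 TPM in saliva immune and 9.18, 11.7 and 8.73 TPM in first exposure skin (log2 difference 0.46, SE 0.16), and the fatty acid transporter SLC27A1 measured 11.96, 11.6 and 11.8 TPM against 9.74, 9.00 and 7.53 TPM (0.40, SE 0.15). The urate transporter SLC2A9 (0.30), SLC16A10 (0.30), the heme transporter SLC48A1 (0.26) and the mitochondrial glutathione carrier SLC25A39 (0.25) also lay higher without overlap, and SLC25A46, a protein of mitochondrial shape (-0.24), and the endolysosomal histidine and peptide transporter SLC15A4 (-0.15) lower. None passed (adjusted p = 1 for each of these genes), and 0 of all tested genes did. Before adjustment 4 genes (2.31%) were higher, namely SLC25A25 (0.73), Slc26a6, SLC27A1 and SLC25A39, and 0 lower, where 1.8% and 0.547% of all tested genes were. The median was -0.06, against 0.02 over all tested genes. The split was 2 higher and 4 lower with median-of-ratios scaling. Without saliva immune replicate 3 it was 17 higher and 15 lower.

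**Figure D4:**
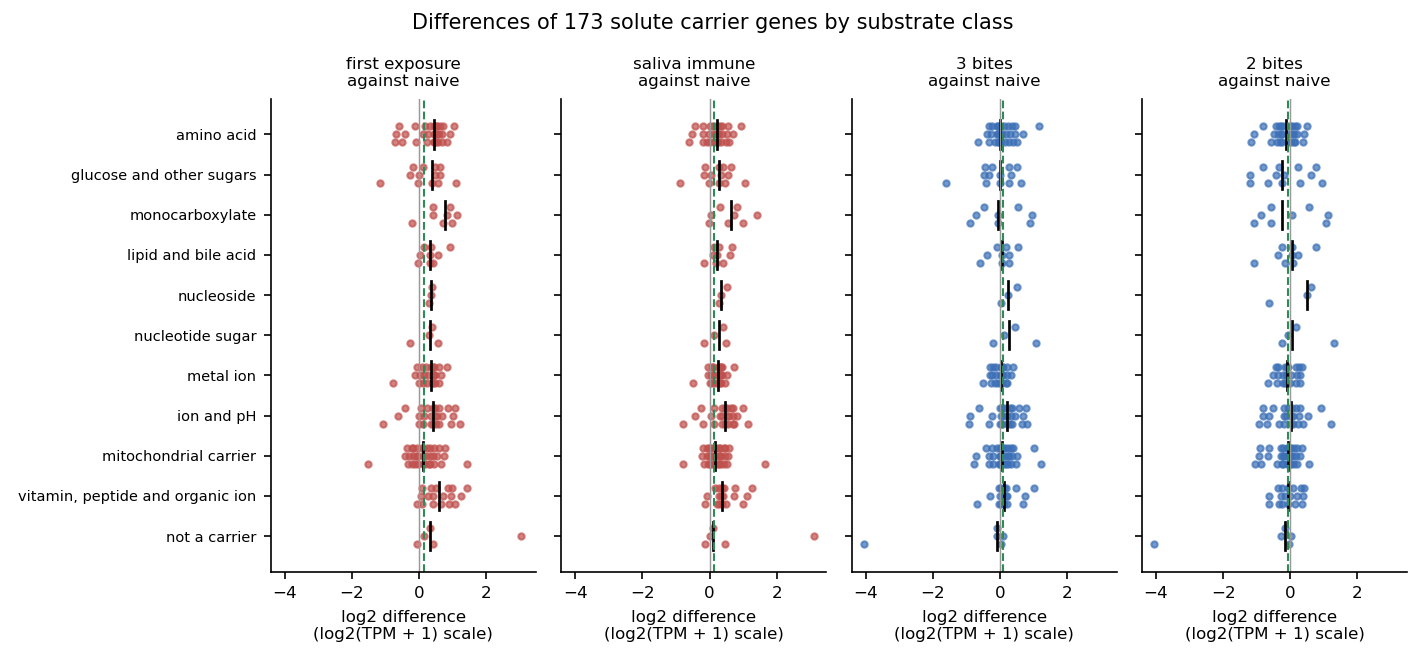
Log2 difference (log2(TPM + 1) scale) from the naive skin of the same experiment for the 173 genes by class, in first exposure, saliva immune, 3 bites and 2 bites skin; each point is a gene, black lines are class medians, grey lines mark 0 and green dashed lines the median of all tested genes. The monocarboxylate median stands at 0.77 in first exposure, 0.65 in saliva immune, -0.06 in 3 bites and -0.25 in 2 bites skin.

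Repeat bites were examined in EF19-5, where 3 bites and 2 bites skin have naive replicate 3 as their only reference, a lone library whose spread was taken from the model. After 3 bites the Golgi UDP-galactose transporter SLC35A2 measured 10.1 and 12.2 TPM, against 4.77 TPM in naive skin (log2 difference 1.07, SE 0.424). The glycine transporter SLC6A9 measured 43.9 and 64.1 TPM against 23.4 TPM (1.15, SE 0.713), SLC22A4 22.9 and 30.7 TPM against 12.6 TPM (1.02) and SLC16A1 76.7 and 85.2 TPM against 43.2 TPM (0.89, SE 0.388). SLC25A34 (1.23), SLC25A48 (1.02) and SLC16A13 (0.95) also lay above the naive library. The difference of SLC25A34 was 0.05 without the experiment term, and that of SLC25A48 was 0.40 without 3 bites replicate 2 and 1.64 without replicate 1. Below it lay SLC8A3 (-0.92), the sodium-coupled monocarboxylate transporter SLC5A8 (-0.89), the mitochondrial pyrimidine nucleotide carrier SLC25A33 (-0.77), SLC25A4 (-0.72) and SLC16A9 (-0.70). The muscle share was 1.084% and 0.528% in 3 bites and 1.77% in the naive library, and its part in these values was not tested. None passed (adjusted p = 1 for each), beside 0.00668% of all tested genes. At an unadjusted p under 0.05, 2 (1.16%) were higher (SLC35A2 and SLC16A1) and 1 (0.578%) lower (the heme transporter SLC48A1, -0.49), against 1.65% and 0.694% of all tested genes, and the median was 0.06, against 0.08. With quantile normalization the split was 4 and 1.

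After 2 bites SLC16A1 measured 126 and 72.8 TPM, against 43.2 TPM in naive skin (log2 difference 1.13, SE 0.388, adjusted p = 0.743). SLC35A2 measured 13.4 and 12.8 TPM against 4.77 TPM (1.29, adjusted p = 0.743), SLC16A3 26.6 and 21.9 TPM against 10.9 TPM (1.076, adjusted p = 0.851) and SLC34A2 121 and 68.2 TPM against 47.6 TPM (0.92, adjusted p = 0.847). GLUT1, SLC2A1, stood at 168 and 139 TPM against 88.95 TPM (0.77, adjusted p = 0.934). Below naive skin lay SLC37A4, at 5.495 and 6.11 TPM against 14.75 TPM (-1.21, SE 0.313, adjusted p = 0.7), the glucose transporter family member SLC2A12 (-1.21, adjusted p = 0.832), SLC7A2 (-1.16, adjusted p = 0.86), SLC36A2 (-1.09, adjusted p = 0.743) and the fatty acid transporter family member SLC27A6 (-1.07, adjusted p = 0.951). None of the 173 genes passed, beside 0.0134% of all tested genes. Before adjustment 3 genes (1.73%) were higher, namely SLC35A2, SLC16A1 and SLC27A3 (0.77). Lower were 5 (2.89%), namely SLC37A4, SLC2A12, SLC36A2, SLC25A30 (-0.90) and SLC16A10 (-0.57). The shares over all tested genes were 2.7% and 3.16%, and the median was -0.08, against -0.06. With median-of-ratios scaling the split was 5 and 4. On leaving out 1 library the higher count lay between 1 (without 2 bites replicate 1) and 5 (without 2 bites replicate 2), and the lower count between 3 and 11 (without saliva immune replicate 3). Muscle markers took 0.459% and 0.611% in 2 bites and 1.77% in naive skin, and their part in these values was not tested.

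Among genes whose 3 bites and 2 bites libraries did not overlap, the largest differences were higher after 3 bites. SLC38A2 (SNAT2, ENSCPOG00000003746), which takes up small neutral amino acids, measured 179.5 and 181 TPM in 3 bites and 98.9 and 96.0 TPM in 2 bites skin (log2 difference 0.88, SE 0.208, adjusted p = 0.331), with close agreement within each group. The sodium-potassium-chloride cotransporter SLC12A2 (NKCC1) measured 39.4 and 85.0 TPM against 21.8 and 20.3 TPM (1.42, SE 0.493, adjusted p = 0.384). The mitochondrial carrier SLC25A48 measured 41.3 and 98.9 TPM against 13.6 and 19.8 TPM (1.90, SE 0.659, adjusted p = 0.384). In both of these genes the 3 bites libraries differed from each other by over 2-fold. SLC6A9 (1.09), SLC2A12 (0.97) and the calcium exchanger SLC24A3 (0.88) also lay higher without overlap. SLC34A2 (-0.80), SLC16A3 (-0.54), the magnesium transporter SLC41A2 (-0.53), the sulfate transporter SLC26A2 (-0.50), SLC48A1 (-0.43) and SLC22A18 (-0.38) lay lower.

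None of the 173 genes passed in 3 bites against 2 bites skin, and 0 of all tested genes did. At p under 0.05 without adjustment, 14 genes (8.09%) were higher and 2 (1.16%, SLC34A2 and SLC48A1) lower, close to the 8.12% and 2.66% of all tested genes. The median was 0.17, against 0.13 over all tested genes. This direction did not survive another scaling: with median-of-ratios scaling, where the median of all genes was -0.03, the split was 9 higher and 13 lower and the median of the solute carriers 0.00. On leaving out 1 library the higher count lay between 6 (without 2 bites replicate 1) and 23 (without saliva immune replicate 3), with 7 without 3 bites replicate 2, and the lower count between 1 and 5 (without 2 bites replicate 2). Macrophage markers took 0.0539% and 0.0127% in 3 bites and 0.09295% and 0.03955% in 2 bites skin, and keratinocyte markers (6 of 12 listed in the table) 4.25% and 5.26% against 5.70% and 3.95%.

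Whether bitten skin differed from naive skin by unequal amounts in EF19-5 and CK1 was tested with an interaction term. None of the 173 genes passed (smallest adjusted p = 0.9995), and 0 of all tested genes did. At an unadjusted p under 0.05, 0 were higher and 5 (2.89%) lower in EF19-5 than in CK1, where 0.474% and 2.22% of all tested genes were. Those 5, chosen after their values were seen, were the monocarboxylate genes SLC16A9 (-1.53) and SLC16A7 (-1.37), the peptide transporter SLC15A1 (-1.29), SLC25A33 (-0.90) and SLC2A4RG.

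A few genes were listed at or near 0 in some libraries. The melanosomal transporter SLC45A2 (ENSCPOG00000009431) and the melanosomal exchanger SLC24A5 (ENSCPOG00000010579), both pigmentation genes in mouse and human, stood at 0.0698 TPM and 0 in 3 bites replicate 1 and at 19.1 and 17.4 TPM in replicate 2. In 2 bites skin SLC45A2 measured 14.1 and 29.8 TPM and SLC24A5 11.7 and 26.3 TPM, and in EF19-5 naive skin they measured 13.1 and 7.03 TPM. The melanocyte markers (8 of 8 in the table) took 0.00327% of 3 bites replicate 1 and 0.00889% to 0.0228% of the others. TYR was listed at 0 in that library, while MITF stood at 22.9 TPM, within the range of the others. The log2 differences between 3 and 2 bites were -2.22 for SLC45A2 (adjusted p = 0.469) and -2.12 for SLC24A5 (adjusted p = 0.488). Without 3 bites replicate 2, the group consists of the library in which TYR, MLANA and TYRP1 are listed at 0, and SLC45A2 was then 1 of 4 lower genes that passed among all 14979 tested (-4.34, adjusted p = 0.0428).

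SLC2A4RG (ENSCPOG00000035815), a transcription factor named for the GLUT4 gene, was listed at 0 in 8 of the 13 libraries. It measured 0, 30.4 and 16.8 TPM in first exposure and 18.05, 0 and 33.2 TPM in saliva immune skin, and it was listed at 0 in both CK1 naive libraries. In EF19-5 it was listed at 0 in all 3 bites and 2 bites libraries and at 15.6 TPM in naive skin. An exact 0 in a TPM table can be a failed estimate, and levels between 0 and 15 TPM did not occur in any library. The fitted difference of -4.06 in both 3 bites and 2 bites skin against naive skin therefore rests on 1 library.

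**Figure D5:**
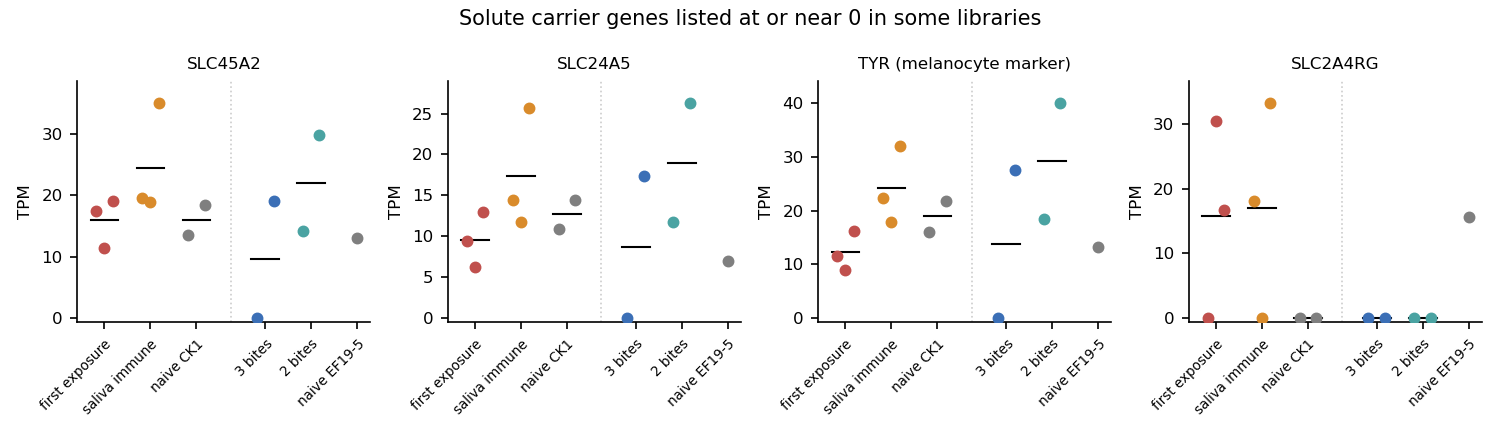
TPM of SLC45A2, SLC24A5, the melanocyte marker TYR and SLC2A4RG in each library; points are libraries, black lines are group means and the dotted line separates CK1 from EF19-5. The first 3 genes are at or near 0 in 3 bites replicate 1 alone, whereas SLC2A4RG is at 0 in 8 libraries and between 15.6 and 33.2 TPM in the other 5.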

How the data were processed

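Total RNA of guinea pig skin was isolated with a Qiagen RNeasy kit and made into Illumina libraries, per the labels' protocols. The values are TPM as the authors deposited them, in 1 table with a column per library. The submitters' processing notes list Trimmomatic, StringTie and DESeq, with neither version nor role. Aligner, genome build and annotation were not given in the sources used here, so no coordinates are printed. TPM is a share: where 1 tissue takes more of a library, all other genes get less. It gives no depth from which counting intervals could be made.

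The 14979 genes that reached 1 TPM in 2 or more libraries were tested together by limma 3.58.1 (R 4.3.3) on log2(TPM + 1), with an intensity trend, two-sided, and Benjamini-Hochberg adjustment over all of them at 0.05. All models held the experiment as a fixed term, with either a bitten term or the 5 groups beside it. The naive reference was replicates 1 and 2 in CK1 and replicate 3 in EF19-5. Comparisons with the same naive libraries share them and are not independent. The fit was tested on simulated data, with recovery meaning a changed gene passed at an adjusted p under 0.05. The simulated libraries held independent noise at the spread within groups and no other differences between groups or experiments. Changed genes were drawn from those with higher levels. Recovery may thus be lower in the real data, above all for the bitten term, which pools the bite groups. A log2 change of 1 was recovered in 16.9% of changed genes in 3 bites against naive skin, the lowest share. In 2 bites against naive skin it was 18.3%, in first exposure 40.0%, and in bitten against naive skin 75.0%, the highest share. Changes of that size could thus go uncalled.

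The members, classes, marker lists and alternatives were chosen with earlier results of these data known. SLC4A1AP was moved to the non-carriers after the members were listed. Named genes are, per comparison, the 6 each way with the largest difference among those without overlap, the 2 highest of each class by mean TPM, and a fixed panel, plus members of counts of 5 or fewer. Of that panel, SLC11A1, SLC15A3 and SLC7A10 lay under 5 TPM and SLC2A3 was not analysed here. Of the 173 symbols, 170 are in the RefSeq gene table. Alternatives were 2 other scalings, a pseudocount of 0.1, other filters, array weights, no experiment term, each experiment alone and leaving out each library.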

Additional observations from a re-analysis of the deposited data

How the results depend on the processing

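Over 146 other fits, a solute carrier passed in 4. SLC2A4RG passed in bitten against naive skin within EF19-5 alone, where 1 member was called (-4.06, adjusted p = 0.0398) beside 1 higher and 1 lower of all 14979 tested genes. Without the experiment term 3 members were called in 2 bites against naive skin: SLC37A4 (-2.08, adjusted p = 0.0394), SLC36A2 (-1.59, adjusted p = 0.0394) and SLC16A10 (-0.85, adjusted p = 0.0465), beside 145 higher and 109 lower of all tested genes. Leaving out 1 library gave 0 to 1 calls in saliva immune against naive skin (SLC16A3, beside 3 higher of all tested genes) and 0 to 1 in 3 against 2 bites (SLC45A2, beside 4 lower), and 0 in the other comparisons. Leaving out 1 library moved the median difference to between 0.13 and 0.58 in first exposure and between 0.08 and 0.49 in saliva immune against naive skin, where a replicate spread of 0.198 (SD) was the yardstick. The median over all tested genes moved as well, to between -0.0 and 0.27 and to between 0.01 and 0.29. Without the experiment term the median was 0.33 in 3 bites and 0.14 in 2 bites against naive skin. Over all tested genes it was 0.24 and 0.08. The 100 differences of named genes kept their direction in 2078 of 2080 other fits. Many of these genes were named for large differences without overlap in these same libraries, and many fits left out a library outside the comparison. Agreement in direction was therefore largely fixed in advance and does not support the differences. Both exceptions came without the experiment term: SLC16A9 in 3 bites (0.09) and SLC27A6 in 2 bites against naive skin (0.01). That term sets which naive libraries a group is compared with. For the other changed values the cause was not tested. Class medians turned sign or reached 0 under another scaling for mitochondrial carriers in every comparison except saliva immune against first exposure, and for 7 of 11 classes in 3 against 2 bites skin. Without naive replicate 3 neither repeat bite group could be compared with naive skin. No paired analysis was possible because the replicate numbers were given in accession order and pair no libraries. Depth is unknown, and close paralogs and overlapping genes may share reads.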

Other observations

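Among the 134 solute carrier genes below 5 TPM, 62 could be tested and 0 passed in any of the 7 comparisons (smallest limma adjusted p = 0.113, in bitten against naive skin). A few are described here, chosen after their values were seen. The peptide transporter SLC15A2 (PEPT2) measured 0.784, 0.782 and 0.875 TPM in first exposure, 2.31, 3.98 and 2.748 TPM in saliva immune and 0.610 and 0.554 TPM in CK1 naive skin. In EF19-5 it measured 9.12 and 2.67 TPM in 3 bites, 7.68 and 4.51 TPM in 2 bites and 1.18 TPM in naive skin. First exposure skin was thus near naive skin and apart from the saliva immune libraries, with log2 differences of 1.12 between saliva immune and first exposure (SE 0.35, adjusted p = 1) and 0.20 between first exposure and naive skin (SE 0.39, adjusted p = 0.831). SLC15A3, a lysosomal histidine and peptide transporter, measured 1.47, 3.09 and 1.96 TPM in saliva immune and 0.505, 0.964 and 0.382 TPM in first exposure skin (0.96, SE 0.27, adjusted p = 1). It stood at 0.551 and 0.468 TPM in CK1 naive skin.

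The cationic amino acid transporter light chain SLC7A7 was highest after 2 bites, at 15.1 and 6.77 TPM, with 6.16 and 2.91 TPM after 3 bites and 2.73 TPM in EF19-5 naive skin (2 bites against naive 1.58, adjusted p = 0.743). The concentrative nucleoside transporter SLC28A3 measured 4.89 and 2.63 TPM in 2 bites, 1.86 and 0.606 TPM in 3 bites and 0.149 TPM in EF19-5 naive skin, and it was listed at 0 in both CK1 naive libraries. SLC11A1 (NRAMP1), a metal transporter of phagosomes, ranged over 0.508 to 4.15 TPM in bitten libraries and over 0 to 0.945 TPM in naive ones. Macrophage markers took 0.09295% and 0.03955% of summed TPM in 2 bites, 0.0539% and 0.0127% in 3 bites and 0.02235% in EF19-5 naive skin, and their part in these values was not tested. SLC45A1 held 2 levels: it measured 6.75 and 6.79 TPM in CK1 naive skin, 7.37 TPM in saliva immune replicate 3 and 4.62 TPM in 2 bites replicate 1, while the other libraries lay between 0.209 and 2.54 TPM.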
